A study of Mus musculus with 24 samples.

Results

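The proprotein convertases Pcsk4, Pcsk5, Pcsk6, Pcsk7 and Furin were followed across 8 groups of mouse arrays. Their probes were taken by gene name from the deposited scanner files: 6 of the 55681 probes on the array, for 5 of 34844 gene names, with 2 probes for Pcsk5 and 1 for each of the others. Pcsk4 leads the group because it had been chosen for a large difference between genotypes at ZT13 in both tissues, so that difference is given below as a description without a test.

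The mice carried human PER1, a repressor protein of the circadian clock, either with the change S714G (hPER1 S714G, the mutant) or as hPER1 S714 (the control). All were male, 2 months old, on a C57BL/6 background and entrained to light-dark cycles for 10 days, so the human gene, the sex, the strain and the lighting were common to every group. The groups were liver of mutant and control mice at ZT1 and at ZT13, and white adipose tissue of mutant and control mice at ZT1 and at ZT13, where ZT counts hours from lights on. Each group had 3 arrays, which the study's design text calls independent repeats, and whose number sets how precise the values are. The labels do not say how the human gene is carried or which promoter drives it.

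Proprotein convertases are calcium-dependent serine proteases of the secretory pathway. They cut precursor proteins after basic residues and so release active hormones, growth factors, receptors and proteases. Furin acts in most cells, from the trans-Golgi network to the cell surface. Pcsk4 is known mainly from male germ cells of the mouse, where it is needed for sperm to fertilise. Pcsk5 is made as a short soluble form and as a long form anchored in the membrane, Pcsk6 (PACE4) binds to the extracellular matrix, and Pcsk7 is a membrane-bound member that can shed the transferrin receptor. In liver, convertases process precursors that bear on lipid and iron metabolism.

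The 6 probe sequences are shown because each value below is the signal of 1 of these probes, and because the 2 Pcsk5 probes report different transcripts. Sequences are those of the array files, read 5′ to 3′. Capitals mark the longest run of bases that a probe shares with any other of the 6 on either strand.
Pcsk4 A_55_P2167269: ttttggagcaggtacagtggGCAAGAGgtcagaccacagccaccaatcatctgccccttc
Pcsk5 A_52_P544043: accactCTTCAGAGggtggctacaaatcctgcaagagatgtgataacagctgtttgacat
Pcsk5 A_55_P2167274: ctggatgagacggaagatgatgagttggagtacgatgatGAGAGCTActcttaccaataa
Pcsk6 A_55_P1972991: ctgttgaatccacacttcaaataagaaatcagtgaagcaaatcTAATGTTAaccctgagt
Pcsk7 A_51_P351285: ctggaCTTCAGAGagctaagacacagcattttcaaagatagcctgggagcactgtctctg
Furin A_55_P2064557: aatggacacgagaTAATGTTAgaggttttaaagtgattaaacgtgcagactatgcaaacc

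The longest shared run was 7 bases for the Pcsk4 probe and 8 bases for each of the others, out of 60 bases per probe. In the array design, on mouse build mm9, the Pcsk4 probe lies at chr10:79784094-79784153 on the minus strand and the Furin probe at chr7:87534082-87534141 on the minus strand. The Pcsk6 probe lies at chr7:73195141-73195200 and the Pcsk7 probe at chr9:45737513-45737572, both on the plus strand. The Pcsk5 probe A_55_P2167274 lies at chr19:17507883-17507942 on the minus strand, and the design ties it to RefSeq variant 1 of Pcsk5, the long transcript. The other Pcsk5 probe, A_52_P544043, is tied to variants 1 and 2, and its positions, chr19:17638365-17639236 on the minus strand, span 872 bases for 60 bases of probe, so its target is split in the genome. No annotation of mm9 was used, so exons and untranslated regions under the probes are not given.

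Levels below are log2 of the scanner's processed signal relative to the 75th percentile of the same array, so a value of 0 is that percentile. Over the 24 arrays this percentile ran from 376.5 to 1808 intensity units, and 45.5% to 71.2% of the spots were well above background. A difference of 1 on the log2 scale is a doubling. The probes of Pcsk4, Pcsk6, Pcsk7 and Furin were well above background on 24 of 24 arrays, Pcsk5 A_52_P544043 on 23 and Pcsk5 A_55_P2167274 on 21, and none was saturated. All 6 probes entered the fits. Adipocyte markers were well above background for 10 of 10 genes in every adipose group, and hepatocyte markers for 9 of 9 genes in every liver group. The mean log2 level of the hepatocyte markers was 7.01 to 7.89 on the liver arrays, against -3.03 to 5.76 on the adipose arrays.

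In liver, Pcsk4 was high in mutant mice at ZT1 and in control mice at ZT13, the opposite times of day. At ZT1 its log2 level was 3.22, 3.26 and 3.30 on the mutant liver arrays, against 1.39, 1.26 and 1.29 on the control liver arrays. At ZT13 it was 1.11, 1.49 and 1.27 on the mutant liver arrays, against 4.63, 4.81 and 5.01 on the control liver arrays. The groups did not overlap at either time, and the side that was higher changed between the times. At ZT1 the mutant exceeded the control by 1.95 ± 0.148 (log2, SE, n = 3 each), a 3.87-fold difference (limma, adjusted p = 1.863e-05).

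The group means of that difference at ZT1 are separate from the values that chose Pcsk4. Its SE and p are not wholly so, since the spread was estimated over all 12 liver arrays, those of ZT13 included. The 3 mutant arrays lay on slide 2 and the 3 control arrays on slide 1. Slide and genotype therefore cannot be told apart within liver at ZT1. With slide as a term in a fit over all 24 arrays, in which adipose arrays of the same genotype lay on both slides, the Pcsk4 difference was 2.46 ± 0.360 (log2, SE, n = 3 each, limma adjusted p = 0.00584). In that fit 0.3% of all probes passed, against 44.2% without the slide term. It takes a slide effect to be alike in both tissues, and the step between these slides rests on 1 adipose mutant array set against 2. The sample titles also carry a letter, B or C, whose meaning the labels do not give. The slide 2 array of this step carries C, and of the 2 arrays on slide 1, 1 carries B and 1 carries C.

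At ZT13 the described difference of Pcsk4 in liver was -3.53 (log2, mutant minus control), 11.5-fold in size, the 21st largest of 30818 probes in size. Of all probes, 3% passed the threshold in that comparison. Within slide 3, which held 3 mutant and 2 control livers of ZT13, it was -3.62. From ZT1 to ZT13 Pcsk4 differed by -1.97 (log2, ZT13 minus ZT1) in mutant liver and by 3.51 in control liver, again as a description, since both use the ZT13 arrays that chose the gene. No slide held liver arrays of both times from the same genotype, so time and slide cannot be told apart in these values. The 4 liver groups stood in the order control at ZT13, mutant at ZT1, control at ZT1 and mutant at ZT13. The last 2 overlapped in range, and no other neighbours did.

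**Figure D1:**
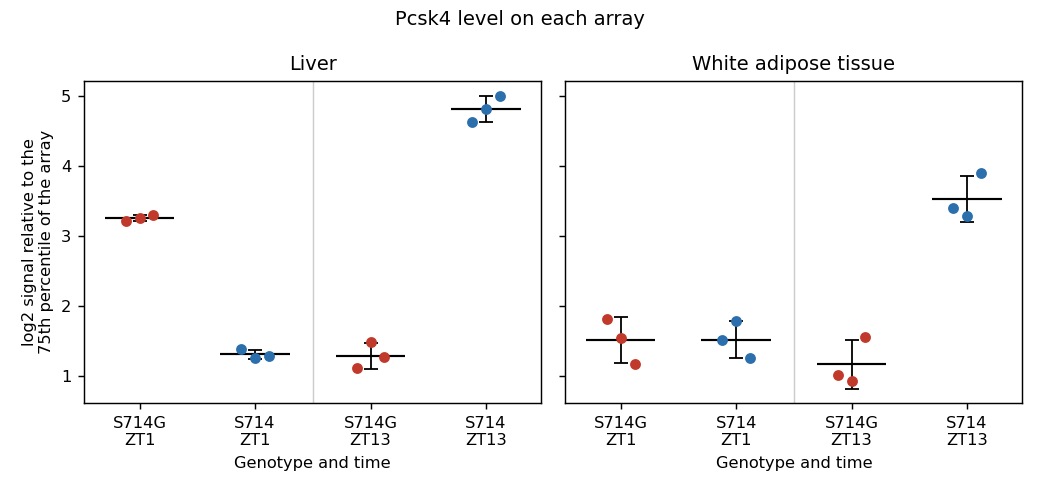
Level of Pcsk4 on each array in liver (left) and white adipose tissue (right), as log2 signal relative to the 75th percentile of the array; points are arrays, bars are the mean and SD of 3 arrays, red is mutant (S714G) and blue control (S714). Control at ZT13 is highest in both tissues (4.63 to 5.01 in liver, 3.29 to 3.91 in adipose), and mutant liver at ZT1 (3.22 to 3.30) has no counterpart in mutant adipose at ZT1 (1.18 to 1.82).

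In white adipose tissue Pcsk4 was high in control mice at ZT13 only. At ZT1 its log2 level was 1.82, 1.55 and 1.18 on the mutant adipose arrays, against 1.51, 1.78 and 1.26 on the control adipose arrays. At ZT13 it was 1.01, 0.93 and 1.56 on the mutant adipose arrays, against 3.41, 3.29 and 3.91 on the control adipose arrays. The genotypes overlapped at ZT1 and stood apart at ZT13. The described differences in adipose tissue were -2.37 (log2, mutant minus control) at ZT13, the 54th largest of 33787 probes, and by time -0.35 (ZT13 minus ZT1) in mutant mice and 2.02 in control mice. Of all probes, 0.0385% passed between genotypes at ZT13. The mutant arrays of that comparison lay on slide 3 and the control arrays on slide 2, and with slide as a term the difference was -2.64. No slide held adipose arrays of both times from the same genotype, so time and slide cannot be told apart in the values by time.

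At ZT1 the Pcsk4 difference between genotypes in adipose tissue was -0.00 ± 0.273 (log2, mutant minus control, SE, n = 3 each, limma adjusted p = 0.999), with a 95% confidence interval of -0.60 to 0.59. Within slide 1, which held 2 mutant and 3 control arrays, it was 0.17. The test of the difference between tissues at ZT1, liver minus adipose, gave 1.96 ± 0.305 (log2, SE, n = 3 arrays per group, limma adjusted p = 0.0074). That comparison was added after the data were seen. Of all probes, 1.38% passed in it. Over its alternatives the adjusted p ran between 0.000597 and 0.0246, and with the slide term the value was 2.29 (limma, adjusted p = 0.0096).

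Between tissues at ZT1, Pcsk4 was higher in mutant liver than in mutant adipose tissue by 1.75 ± 0.216 (log2, SE, n = 3 each, limma adjusted p = 1.172e-06). In control mice at ZT1 the liver minus adipose difference was -0.21 ± 0.216 (log2, SE, n = 3 each, limma adjusted p = 0.449), with a 95% confidence interval of -0.66 to 0.24. At ZT13 the liver minus adipose difference was 0.12 in mutant mice and 1.29 in control mice, as a description. With quantile normalization the control value at ZT13 was 0.54.

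These are bulk tissues, so a change in RNA per cell and a change in the share of a cell type cannot be told apart. Testis germ cell markers, the cells for which Pcsk4 is best known, were well above background on all 3 arrays of a group for 2 to 5 of 14 genes. Between 6 and 10 of the 14 were well above background on no array of a group, and their mean log2 level was between -5.46 and -3.69 over the 24 arrays. In liver at ZT1 it was -5.06 to -4.30 on the mutant arrays, against -4.26 to -3.69 on the control arrays. At ZT13 it was -5.37 to -4.71 on the mutant adipose arrays, against -4.79 to -4.77 on the control adipose arrays. In liver at ZT13 it was -5.46 to -5.08 on the mutant arrays, against -5.15 to -4.46 on the control arrays. Macrophage markers, 9 of 9 well above background in adipose tissue at ZT13, had a mean log2 level of 1.19 to 1.69 on the mutant adipose arrays, against 2.03 to 2.41 on the control adipose arrays, without overlap. Hepatocyte markers on those arrays had a mean log2 level of 0.33 to 2.11 in mutant adipose, against 1.08 to 3.30 in control adipose tissue. At ZT1 they had a mean log2 level of -3.03 to 2.89 on the mutant adipose arrays, against 3.29 to 5.76 on the control adipose arrays, without overlap. Of these 9 genes 0 passed between genotypes there by limma, as did 0% of all probes. The part of these cells in the Pcsk4 differences was not tested.

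The relatives of Pcsk4 did not share its difference at ZT13. In liver at ZT13 the log2 difference, mutant minus control, lay between -0.32 (Pcsk7) and 0.12 for the 5 probes of Pcsk5, Pcsk6, Pcsk7 and Furin, and Pcsk7 was the 1 of these 5 whose genotypes did not overlap. Of all probes, 29.7% did not overlap in that comparison. In adipose tissue at ZT13 the difference lay between -0.09 and 0.17, and the Pcsk7 groups were again the 1 pair without overlap, against 24.9% of all probes. The difference of Pcsk7 was -0.32 in liver and 0.13 in adipose tissue. These values are descriptions, since the comparison chose Pcsk4.

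**Figure D2:**
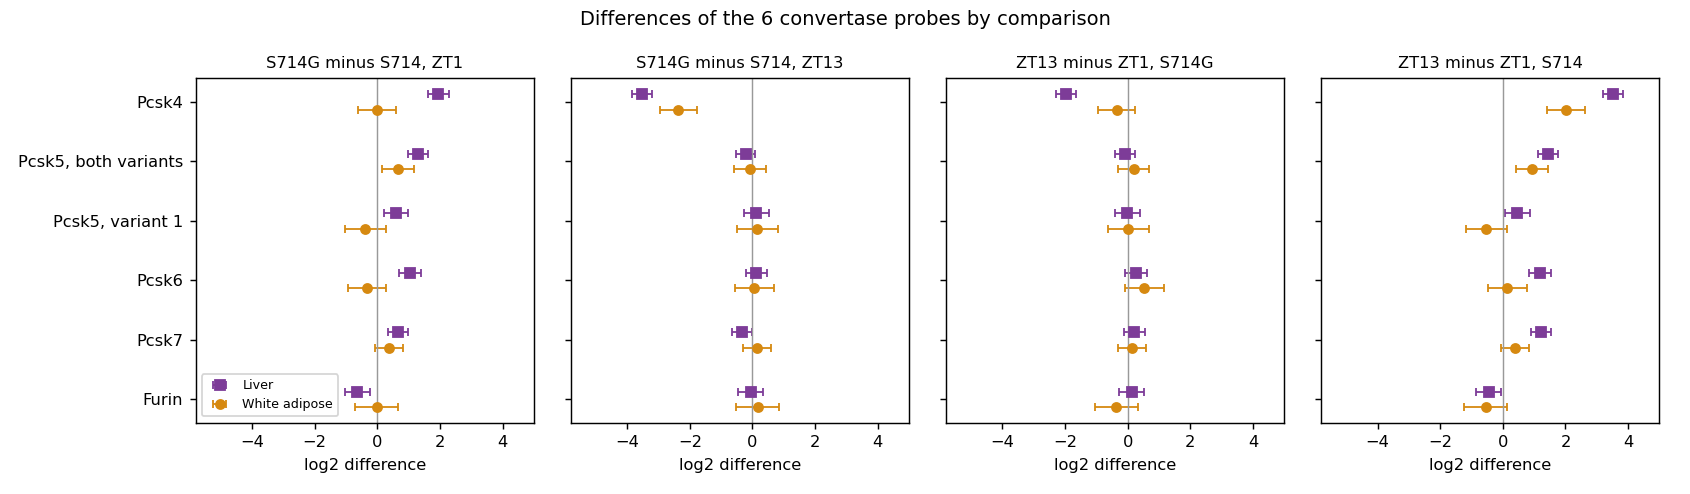
Log2 differences of the 6 probes with 95% confidence intervals in 4 comparisons, for liver (purple squares) and white adipose tissue (orange circles). At ZT13 between genotypes only Pcsk4 lies far from 0 (-3.53 in liver and -2.37 in adipose), while at ZT1 in liver 5 probes lie above 0 and Furin below.

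At ZT1 in liver all 6 probes passed the test between genotypes, in a comparison in which 44.2% of all probes passed, 51.5% did not overlap and the slides matched the genotypes. Pcsk5 A_52_P544043 had a log2 level of -1.08, -1.06 and -1.06 on the mutant liver arrays, against -2.53, -2.33 and -2.26 on the control liver arrays, a difference of 1.30 ± 0.142 (SE, n = 3 each, limma adjusted p = 0.000107). The control value of replicate 3 was not well above background. Pcsk6, the convertase PACE4, had a log2 level of 3.01, 3.24 and 2.98 on the mutant liver arrays, against 2.24, 2.06 and 1.80 on the control liver arrays, a difference of 1.05 ± 0.155 (SE, n = 3 each, limma adjusted p = 0.000555). Both were higher in mutant liver without overlap.

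Pcsk7 had a log2 level of 2.09, 2.31 and 2.47 on the mutant liver arrays at ZT1, against 1.78, 1.63 and 1.47 on the control liver arrays, a difference of 0.66 ± 0.147 (SE, n = 3 each, limma adjusted p = 0.00456). Furin was lower in mutant liver, at 4.24, 4.02 and 4.01 (log2) against 4.98, 4.35 and 4.85 on the control liver arrays, a difference of -0.64 ± 0.182 (SE, n = 3 each, limma adjusted p = 0.0158). Without mutant liver replicate 2 the Furin difference was -0.60 (limma, adjusted p = 0.0548), and without replicate 3 also -0.60 (limma, adjusted p = 0.0524). Before scaling, mean processed signal of Furin was 15813 in mutant and 13741 in control liver at ZT1, the opposite order. The 75th percentile there was 902.3 to 958.3 units on the mutant arrays and 376.5 to 673.3 on the control arrays. Over all 24 arrays the processed signal of Furin ran from 9694 to 18443 units. The variant 1 probe of Pcsk5 differed by 0.60 ± 0.180 (log2, SE, n = 3 each, limma adjusted p = 0.0204). Its control value of replicate 3, -2.39 (log2), was not well above background, and without that array the difference was 0.40 (limma, adjusted p = 0.0667). Without mutant liver replicate 1 it was 0.55 (limma, adjusted p = 0.0622).

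With slide as a term, 1 of the 6 probes, that of Pcsk4, passed between genotypes at ZT1 in liver. The other values were 0.69 ± 0.272 (log2, SE) for Pcsk5 A_52_P544043 (limma, adjusted p = 0.415) and 1.65 ± 0.343 for Pcsk5 A_55_P2167274 (limma, adjusted p = 0.0512). They were 0.49 ± 0.380 for Pcsk6 (limma, adjusted p = 0.763), 0.72 ± 0.290 for Pcsk7 (limma, adjusted p = 0.427) and 0.05 ± 0.441 for Furin (limma, adjusted p = 0.988). The sign of Furin was thus turned. Those of Pcsk7 and of Pcsk5 A_55_P2167274 were no smaller than without the term, with a larger SE. For these 5 probes genotype and slide cannot be told apart at ZT1 in liver.

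In adipose tissue at ZT1, 0 of the 6 probes passed between genotypes by limma, in a comparison in which 0% of the 33788 probes passed. At an unadjusted p under 0.05 there were 1 of the 6 and 2610 of all probes. Of all probes, 6.8% did not overlap there, and Pcsk5 A_52_P544043 was the 1 member probe without overlap. It stood at 0.33, 0.30 and 0.93 (log2) on the mutant adipose arrays, against -0.18, -0.32 and 0.08 on the control adipose arrays, a difference of 0.66 ± 0.231 (SE, n = 3 each, limma adjusted p = 0.558). The mutant array at 0.93 was the 1 mutant array on slide 2. Set against liver, the genotype difference at ZT1 of Pcsk6 was larger in liver by 1.37 ± 0.317 (log2, SE, n = 3 arrays per group, limma adjusted p = 0.0402). This call was lost with the slide term (limma, adjusted p = 0.395), with the replicate number as a block (limma, adjusted p = 0.0511) and with quantile normalization (limma, adjusted p = 0.0595). Without mutant adipose replicate 1, the array where Pcsk6 was at 1.28 (log2), it was 1.05 (limma, adjusted p = 0.0697), and in all the call was lost in 8 of the 12 fits that left out 1 array (limma, adjusted p at most 0.103). Without mutant adipose replicate 3, Pcsk5 A_52_P544043 passed as well (0.85, limma adjusted p = 0.0102). With the slide term Pcsk5 A_55_P2167274 passed instead (1.68, limma adjusted p = 0.0411). Together with Pcsk4, 2 of the 6 probes passed this test without that term. On the adipose arrays of this test the mean levels of the hepatocyte markers did not overlap between genotypes, as given above, though 0 of the 9 genes passed (limma). The part of hepatocyte RNA in the Pcsk6 result was not tested.

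**Figure D3:**
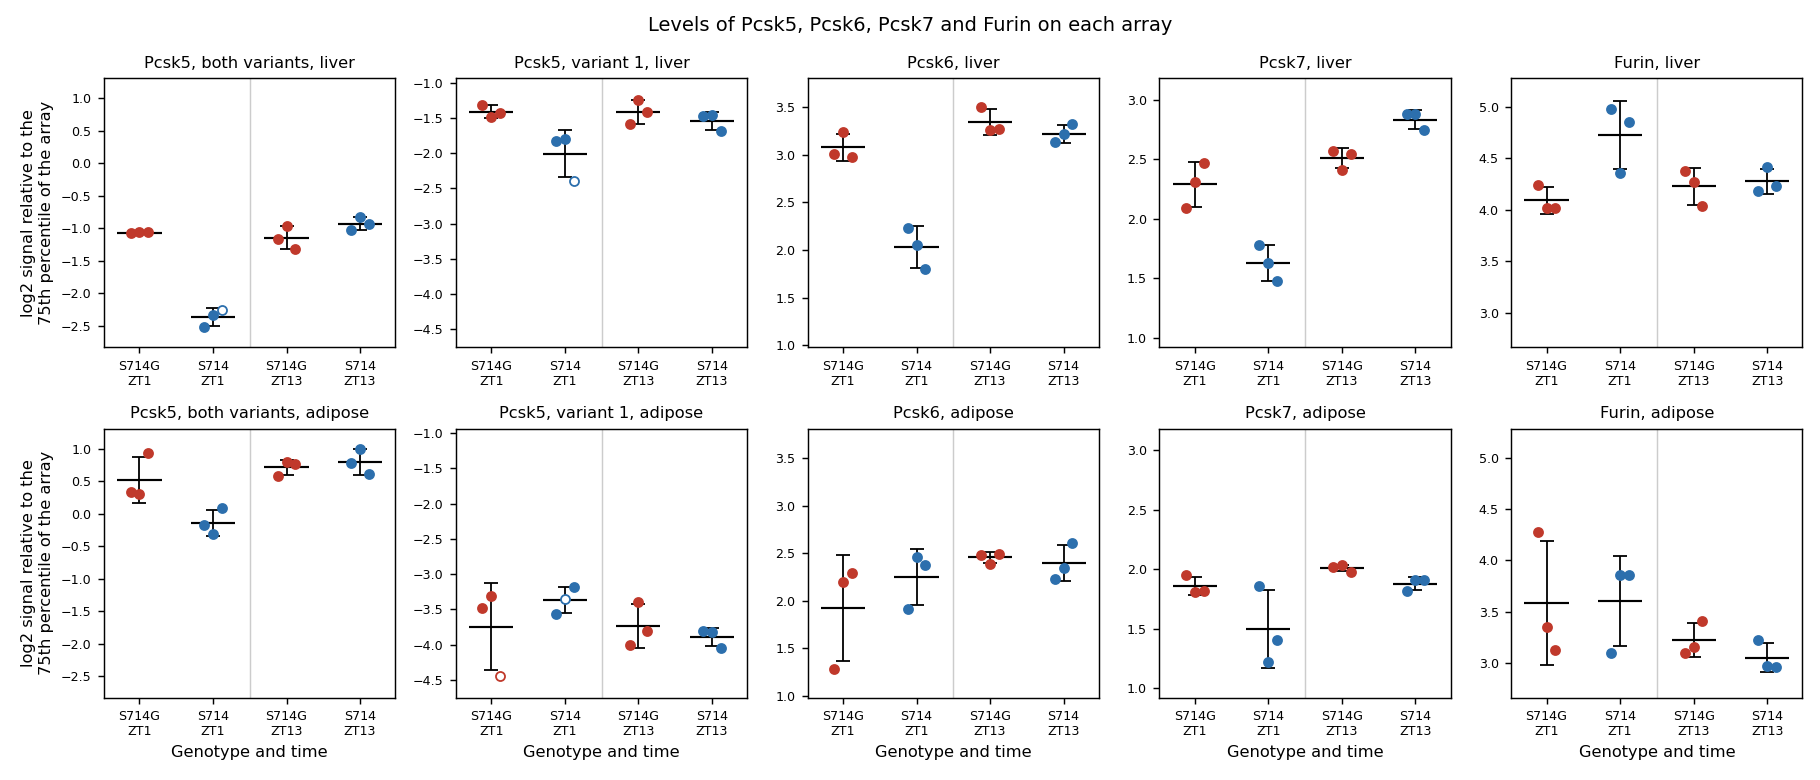
Levels of the 5 probes of Pcsk5, Pcsk6, Pcsk7 and Furin on each array, liver above and white adipose tissue below, as log2 signal relative to the 75th percentile of the array; points are arrays (open where not well above background), bars are the mean and SD of 3 arrays. In liver the control arrays at ZT1 stand apart from the 3 other groups for both Pcsk5 probes, Pcsk6 and Pcsk7. They are the only liver arrays on slide 1, so this pattern and the slide cannot be told apart. The panels of the 2 Pcsk5 probes show opposite orders of the tissues.

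From ZT1 to ZT13 in control liver, 4 of the 5 probes other than Pcsk4 rose, where 50.4% of all probes passed and 21.9% did so upward. Pcsk5 A_52_P544043 was at -1.03, -0.82 and -0.93 (log2) at ZT13 and differed by 1.44 ± 0.142 (log2, ZT13 minus ZT1, SE, n = 3 each, limma adjusted p = 3.361e-05). Pcsk6 was at 3.13, 3.22 and 3.32 at ZT13 and differed by 1.19 ± 0.155 (limma, adjusted p = 0.000167). Pcsk7 was at 2.88, 2.88 and 2.74 at ZT13 and differed by 1.21 ± 0.147 (limma, adjusted p = 0.000115). The ZT13 values of these 3 probes lay above all their ZT1 values in control liver, which are given above.

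The variant 1 probe of Pcsk5 was the fourth that passed, by 0.47 ± 0.180 (log2, ZT13 minus ZT1, SE, n = 3 each, limma adjusted p = 0.0488), and with the replicate number as a block it did not (adjusted p = 0.0504). Without control liver replicate 3 of ZT1 it was 0.27 (limma, adjusted p = 0.175), and without replicate 1, 2 or 3 of ZT13 the adjusted p was 0.116, 0.122 and 0.0595 in that order (limma). Furin had a difference of -0.45 ± 0.182 (log2, SE, n = 3 each, limma adjusted p = 0.0582), and -0.64 without control liver replicate 2 of ZT1 (limma, adjusted p = 0.00607). Before scaling, mean processed signal of Furin in control liver was 16796 at ZT13 and 13741 at ZT1, the opposite order. The control liver arrays of ZT1 are also the reference of the genotype comparison at ZT1 in liver, so the 2 sets of calls are not separate. Control liver at ZT1 lay on slide 1 and at ZT13 on slides 2 and 3, so time and slide cannot be told apart there. With slide as a term, 0 of the 5 probes passed (limma, adjusted p between 0.0849 and 0.946). The values were then 0.72 ± 0.311 (log2, SE) for Pcsk5 A_52_P544043, 1.59 ± 0.392 for Pcsk5 A_55_P2167274, 0.55 ± 0.434 for Pcsk6 and 1.31 ± 0.331 for Pcsk7. Those of Pcsk7 and of Pcsk5 A_55_P2167274 were no smaller than without the term, with a larger SE. Furin was at 0.14 ± 0.504, its sign turned.

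In mutant liver 0 of the 5 probes passed between ZT13 and ZT1 by limma, and 0 at an unadjusted p under 0.05, where 1.95% of all probes passed, and their log2 differences lay between -0.08 and 0.27. The 95% confidence interval of Pcsk6 there was -0.07 to 0.61 and that of Furin -0.26 to 0.54. Mutant liver lay on slide 2 at ZT1 and on slide 3 at ZT13, so time and slide cannot be told apart there. The smaller count in mutant than in control liver thus stands beside a smaller share of all probes. As a description, the daily change in mutant minus that in control liver was -5.48 (log2) for Pcsk4, -1.52 for Pcsk5 A_52_P544043, -0.92 for Pcsk6 and -0.99 for Pcsk7. It was -0.47 for Pcsk5 A_55_P2167274 and 0.59 for Furin. In the fit with slide as a term these values were -6.08 for Pcsk4, -0.96 for Pcsk5 A_52_P544043, -1.50 for Pcsk5 A_55_P2167274, -0.42 for Pcsk6, -1.02 for Pcsk7 and -0.14 for Furin, whose sign was turned. Of all probes, 30.8% passed in that comparison.

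In control adipose tissue 1 of the 5 probes passed between ZT13 and ZT1, where 14.4% of all probes passed. It was Pcsk5 A_52_P544043, at 0.79, 1.0 and 0.61 (log2) at ZT13 and higher there by 0.94 ± 0.231 (SE, n = 3 each, limma adjusted p = 0.029). With the replicate number as a block it did not pass (limma, adjusted p = 0.0583), nor with slide as a term (0.32, limma adjusted p = 0.774), nor when any 1 of the 6 arrays was left out (limma, adjusted p between 0.0517 and 0.0882). Control adipose tissue lay on slide 1 at ZT1 and on slide 2 at ZT13, so time and slide cannot be told apart there. In mutant adipose tissue 0 of the 5 passed by limma, and 0 at an unadjusted p under 0.05, where 1.54% of all probes passed, and the differences lay between -0.36 (Furin) and 0.53 (Pcsk6). The mutant adipose arrays of ZT13 lay on slide 3, those of ZT1 on slides 1 and 2, with the same limit.

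Between the tissues, the 2 Pcsk5 probes went opposite ways. The probe tied to both variants was lower in liver than in adipose tissue in each of the 4 pairs of groups, by -1.59 (log2, liver minus adipose, mutant at ZT1), -1.86 (mutant at ZT13), -2.23 (control at ZT1) and -1.73 (control at ZT13). The probe tied to variant 1 alone was higher in liver in each pair, by 2.34, 2.32, 1.36 and 2.35 in the same order. All 8 differences passed (limma, adjusted p at most 0.000157). Both probes kept these directions within slide 1 for control mice at ZT1 and within slide 3 for mutant mice at ZT13, each with 3 liver and 3 adipose arrays (limma, adjusted p at most 0.00517). For the other pairs the shared slide held 1 array of a tissue.

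On the arrays themselves, the variant 1 probe minus the shared probe had a log2 value between -0.76 and 0.70 (median -0.32) on the 12 liver arrays, against -5.38 to -3.03 (median -4.38) on the 12 adipose arrays, without overlap. The difference between the 2 probes within an array shows only that they changed unequally, since the brightness of different probes is not on a common scale. Variant 1 encodes the long, membrane-anchored form of Pcsk5. The variant 1 probe was dim in adipose tissue, at 60.2 to 142 signal units, and not well above background on 2 of the 12 adipose arrays and 1 of the 12 liver arrays.

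Furin, Pcsk6 and Pcsk7, set relative to each array's 75th percentile, were higher in liver in each comparison between tissues that they passed. At ZT13 that percentile was 764.4 to 982.7 on liver arrays and 1347 to 1808 on adipose arrays. Before this scaling, mean processed signal of Pcsk6 in control mice at ZT13 was 8145 in liver and 8937 in adipose tissue. For Pcsk7 at ZT13 it was 6167 and 6219 in control mice, and 4784 and 5943 in mutant mice. In the other comparisons that these genes passed, mean processed signal was higher in liver. Of the 6 probes, 5 passed between tissues in mutant mice at ZT1 (52.5% of all probes) and 3 in control mice at ZT1 (46.4%). Of the 5 probes other than Pcsk4, 5 passed at ZT13 in mutant mice (54.9%) and 5 in control mice (54.4%). Furin was higher in liver by 1.01 ± 0.260 (log2, SE, n = 3 each, limma adjusted p = 0.00289) in mutant mice at ZT13, by 1.12 ± 0.260 (limma, adjusted p = 0.00148) in control mice at ZT1 and by 1.22 ± 0.260 (limma, adjusted p = 0.000537) in control mice at ZT13. In mutant mice at ZT1 it was 0.50 (limma, adjusted p = 0.111), and 0.96 within slide 2 (limma, adjusted p = 0.00937), where 3 liver arrays stood against 1 adipose array, whose spread is assumed to be that of the other groups. Without mutant adipose replicate 1, where Furin was at 4.28 (log2), it was 0.85 (limma, adjusted p = 0.00531).

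Pcsk6 was higher in liver by 1.16 ± 0.224 (log2, SE, n = 3 each, limma adjusted p = 0.000228) in mutant mice at ZT1, by 0.89 ± 0.224 (limma, adjusted p = 0.00233) in mutant mice at ZT13 and by 0.83 ± 0.224 (limma, adjusted p = 0.00408) in control mice at ZT13. In control mice at ZT1 the difference was -0.22 (limma, adjusted p = 0.453). Pcsk7 was higher in liver by 0.95 ± 0.163 in control mice at ZT13 (limma, adjusted p = 5.814e-05), by 0.50 ± 0.163 in mutant mice at ZT13 (limma, adjusted p = 0.0143) and by 0.43 ± 0.163 in mutant mice at ZT1 (limma, adjusted p = 0.0326), and in control mice at ZT1 it was 0.13 (limma, adjusted p = 0.529). With quantile normalization 3 of these calls in mutant mice at ZT13 were lost, those of Pcsk6 (0.49, limma adjusted p = 0.0799), Pcsk7 (0.20, limma adjusted p = 0.362) and Furin (0.42, limma adjusted p = 0.144). The Pcsk7 call in mutant mice at ZT1 was lost with quantile normalization too (0.17, limma adjusted p = 0.428), with slide as a fixed term (0.47, limma adjusted p = 0.110) or a random block (0.44, limma adjusted p = 0.0632), within slide 2 (0.47, limma adjusted p = 0.0943, 3 liver arrays against 1 adipose array), and without mutant adipose replicate 2 or 3 or mutant liver replicate 2 or 3 (limma, adjusted p between 0.0504 and 0.135). That of Pcsk6 in control mice at ZT13 was lost with quantile normalization (0.37, limma adjusted p = 0.190) and with the slide term (0.73, limma adjusted p = 0.0554).

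Adamts4, an aggrecan-cutting protease made as a precursor that convertases can process, was higher in mutant liver at ZT13, where Pcsk4 was lower. In liver at ZT13, 2 of 20 measured genes on the list of protease, iron and lipid substrates passed and both were higher in mutant mice, beside 1.49% of all probes. Of 27 growth factors and receptors, 8 inhibitors and chaperones and 2 further convertases, 0 passed (limma), and at an unadjusted p under 0.05 there were 5, 0 and 0. The 2 were Adamts4, by 2.51 ± 0.273 (log2, SE, n = 3 each, limma adjusted p = 0.000967), and Hfe2, the gene of the iron regulator hemojuvelin, by 0.91 ± 0.156 (limma, adjusted p = 0.0103). With slide as a term Adamts4 was at 2.67 ± 0.355 (log2, SE, limma adjusted p = 0.000422) and Hfe2 at 1.01 ± 0.712 (limma, adjusted p = 0.650). The Hfe2 value was thus no smaller than without the term, with a larger SE. The median difference of the list was 0.08, against 0.02 over all probes.

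Adamts4 was followed across groups after its values were seen. It averaged -1.32 ± 0.517 (log2, SD, n = 3) in mutant liver at ZT13. In control liver at ZT13, where it was well above background on 2 of 3 arrays, it averaged -3.83 ± 0.306. At ZT1 it averaged -2.30 ± 0.337 in mutant liver and -0.55 ± 0.223 in control liver, a difference of -1.74 (limma, adjusted p = 0.000751, and 0.515 with the slide term). Its daily change differed between the genotypes by 4.25 (log2, mutant minus control) in liver (limma, adjusted p = 7.389e-05), where 30.8% of all probes passed. In adipose tissue that value was 3.38 (limma, adjusted p = 0.0324), where 0.0918% of all probes passed. In adipose tissue at ZT13 Adamts4 was higher in mutant mice by 2.21 ± 0.344 (log2, SE, n = 3 each, limma adjusted p = 0.0751), which did not pass. It was the 1 gene of the 4 lists that passed in the adipose comparison of daily changes, and Pcsk4 itself was at -2.36 there.

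At ZT1 in liver, where 44.2% of all probes passed, 15 of 27 growth factor and receptor genes passed between genotypes, 4 higher and 11 lower in mutant mice (18.5% and 25.7% of all probes), with a median of -0.38 against -0.13 over all probes. Notch2, a receptor cut by Furin on its way to the surface, was higher by 1.66 ± 0.163 (log2, SE, n = 3 each, limma adjusted p = 6.236e-05), and Pdgfb was lower, at -1.30 (limma, adjusted p = 0.00216). Of the 20 protease, iron and lipid substrates, 4 were higher and 4 lower. Lpl, the lipoprotein lipase that convertases can inactivate, was among the lower, at -1.54 ± 0.203 (limma, adjusted p = 0.000308). Of the 8 inhibitors and chaperones, 1 was higher and 3 lower, and 0 of the 2 further convertases passed. With the slide term Notch2 was at 0.03 (limma, adjusted p = 0.988) and Pdgfb at -0.54 (limma, adjusted p = 0.782). Lpl was then at -1.78 ± 0.444 (log2, SE, limma adjusted p = 0.119), no smaller in size than without the term, with a larger SE.

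The genes most like Pcsk4 were chosen by the smaller of 2 Pearson correlations, over the 12 liver arrays and over the 12 adipose arrays, among 12604 named genes. These correlations are a description, since the arrays share slides and groups. The genes were picked on the same arrays as the differences given below, so those differences follow in part from the choice. They were Mthfd1l, a mitochondrial folate enzyme gene (smaller r = 0.84), D7Wsu130e (0.83), Wee1, a kinase that holds back mitosis and is known as a clock output in mouse liver (0.83), Cpeb1, an RNA-binding regulator of translation (0.81), and Csrnp1 (0.78). By this measure Pcsk5 ranked 1515, Pcsk6 3168, Pcsk7 3748 and Furin 8384. In liver at ZT13 the log2 difference, mutant minus control, was -2.89 for Mthfd1l, -2.65 for D7Wsu130e, -1.93 for Wee1, -0.98 for Cpeb1 and -1.74 for Csrnp1, and in adipose tissue it was -1.87, -1.47, -1.35, -0.76 and -1.15 in the same order. At ZT1 in liver these differences were positive, from 0.27 (Cpeb1) to 2.38 (Wee1). In adipose tissue at ZT1 they were 0.97 for Mthfd1l, 0.57 for D7Wsu130e, 0.72 for Wee1, 0.23 for Cpeb1 and 0.22 for Csrnp1. The difference of Pcsk4 was -0.00 there, so the likeness did not extend to that comparison for each of these genes.

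**Figure D4:**
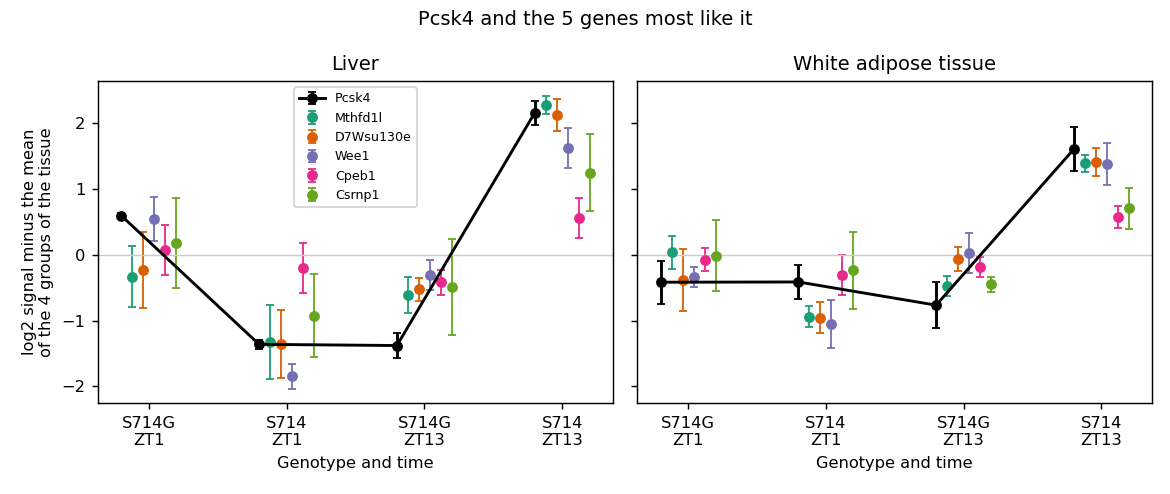
Pcsk4 (black, joined) and the 5 genes whose levels correlated best with it, as the group mean log2 signal minus the mean of the 4 groups of the tissue; bars are the SD of 3 arrays. Every gene is highest in control mice at ZT13 in both tissues, and in liver all lie higher in mutant than in control mice at ZT1. The genes were picked for likeness to Pcsk4 on these arrays, so the shared pattern follows in part from the choice.

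The genes beside Pcsk4 on chromosome 10 did not pass between genotypes at ZT13. Within 100 kb of its probe lay 23 probes of 14 other genes in the array design, of which 21 entered the liver fit and 22 the adipose fit. Between genotypes at ZT13, 0 of the 21 passed in liver and 0 of the 22 in adipose tissue (limma), and 0 did in either at an unadjusted p under 0.05. Over all probes 3% passed in liver and 0.0385% in adipose tissue, so these counts are near the background. At ZT1 in liver 3 of the 21 were higher and 6 lower in mutant mice, where 44.2% of all probes passed. From ZT1 to ZT13 in control liver 5 rose and 5 fell, where 50.4% of all probes passed. The nearest probe, that of 2310011J03Rik at 2.03 kb, was at -0.17 (log2, mutant minus control) in liver at ZT13 (limma, adjusted p = 0.797) and at -0.34 in adipose tissue at ZT13 (limma, adjusted p = 1.0). It did rise from ZT1 to ZT13 in control mice, by 1.32 in liver (limma, adjusted p = 0.000474) and by 1.29 in adipose tissue (limma, adjusted p = 0.0234). These times lay on different slides. In liver at ZT1 it was higher in mutant mice by 1.28 (limma, adjusted p = 0.00086), where the slides matched the genotypes. Its daily change in liver, mutant minus control, differed by -1.46 (limma, adjusted p = 0.00496), where 30.8% of all probes passed. In adipose tissue these 2 values were 0.53 and -0.86 (limma, adjusted p = 0.727 and 0.708). Apc2, with its probe at 3.15 kb, was at 0.16 in liver at ZT13 (limma, adjusted p = 0.815). At ZT1 in liver it was at -1.09 (limma, adjusted p = 0.00171), and its daily change in liver differed by 1.25 (limma, adjusted p = 0.00865).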

How the data were processed

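Cy3 spot intensity was read with Agilent Feature Extraction 10.7.3.1, per the file headers, on 1-colour arrays, with background already subtracted in the processed signal by the authors' software. Other columns deposited by the authors hold flags of 0 or 1 for spots well above background and saturated. The authors' own deposited values are log2. Their medians per array ran from -3.91 to -3.02, and each array's values equalled log2 of its processed signal minus a constant, within 0.01 for at least 99.4% of probes. How that constant was chosen is not stated. The gene names are those of the array design.

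Control and outlier-flagged spots were left out, and spots of a probe averaged. Log2 processed signal was set relative to the 75th percentile of each array. Probes entered a fit if the scanner called them well above background on every array of at least 1 group. Differences were tested with limma 3.58.1 (R 4.3.3, lmFit and eBayes, two-sided) over 12 arrays and 4 group means per tissue (30817 probes in liver, 33788 in adipose tissue), or 24 arrays and 8 group means between tissues (35318), with Benjamini-Hochberg adjustment over all probes and 0.05 as threshold. SE is the standard error of the fit. The fit was tested on data with known answers. Other tools were the R package data.table, version 1.17.8, pandas 2.3.3 under Python 3.11.15, and matplotlib 3.10.9 for the plots.

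The members and the lists were chosen with earlier results of these data known. Named in the text are the 6 member probes, up to 4 genes of lowest p per list that passed, the 5 genes most like Pcsk4 and its nearest neighbours. Replicate numbers come from the sample titles. They were not used to pair the samples. In none of the comparisons did every pair of same-numbered arrays correlate over 0.1 in their deviations from the group means. The fit without a replicate block is therefore the one reported, though with 3 arrays per group this cut cannot exclude a pairing. The labels do not say whether same-numbered liver and adipose arrays share a mouse, and the tests between tissues took them as independent. Alternatives were another background correction, quantile normalization, no filter, the deposited log2 values, the brightest probe per gene, other samples in the fit, slide as a fixed or random block, single slides, a replicate or mouse block, and each array left out.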

Additional observations from a re-analysis of the deposited data

Results flagged for a closer look

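Pcsk4 differed between genotypes in liver in opposite directions at ZT1 and at ZT13, with no overlap at either time, and the difference of the differences was -5.48 (log2, ZT13 minus ZT1). The same value, -5.48, separates its daily changes, mutant minus control, which ran in opposite directions in the 2 genotypes without overlap. Neither was tested, since the ZT13 arrays chose the gene.

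Pcsk7 also stood higher in mutant liver at ZT1 and lower at ZT13, without overlap, with a difference of -0.99 (log2) that was not tested. At ZT13 its genotypes stood apart in opposite directions in liver and in adipose tissue, by -0.45 (log2, liver minus adipose), which was not tested either.

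At ZT1 the genotype difference was larger in liver than in adipose tissue by 1.96 (log2) for Pcsk4 and by 1.37 for Pcsk6, both past the threshold of limma's test of the difference between tissues, with the limits given above for Pcsk6.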

How the results depend on the processing

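Pcsk4 kept its direction at ZT1 in liver under every alternative run, between 1.75 and 2.46 (log2, mutant minus control, limma adjusted p at most 0.00584), and its described difference at ZT13 lay between -3.63 and -3.24 in liver (-3.24 with quantile normalization) and between -2.68 and -2.18 in adipose tissue. With slide as a fixed block, 1 of 6 member probes passed between genotypes at ZT1 in liver, 0 of 5 by time in control liver and 0 of 5 by time in control adipose tissue, and the liver difference of Furin at ZT1 turned to 0.046. With slide as a random block or with the replicate block, 0 passed by time in control adipose tissue. With quantile normalization, 2 of 5 passed between tissues in mutant mice at ZT13. Of the 2 probes past the threshold for liver minus adipose in the genotype difference at ZT1, 1 did with quantile normalization, no filter, slide as a random block, the replicate block and the mouse block. With 1 array left out at a time, the counts ran from 5 to 6 at ZT1 in liver, 3 to 5 by time in control liver, 0 to 0 by time in control adipose tissue, 4 to 6 between tissues in mutant mice at ZT1 and 1 to 3 for the genotype difference at ZT1, liver minus adipose.

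The replicate block ended 3 calls: Pcsk5 A_55_P2167274 by time in control liver (adjusted p = 0.0504), Pcsk5 A_52_P544043 by time in control adipose tissue (adjusted p = 0.0583) and Pcsk6 for liver minus adipose (adjusted p = 0.0511). Of 1502 single-probe values under alternatives, 1406 counted as unchanged. These kept their direction and side of the threshold, moved by less than the spread, or changed sign without passing in either fit. Of the 1502, 48 changed sign without passing in either fit, so the 1406 did not all keep their direction. Quantile normalization removed a median shift of all probes of -0.13 at ZT1 between genotypes in liver and of -0.25 by time in control adipose tissue. Dim signal limits the variant 1 probe of Pcsk5 most. The causes of these changes were not tested.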
